A study of Rattus norvegicus with 6 samples.

Results

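Cholesterol synthesis genes and targets of the transcription factor SREBP2 were examined in the rat jejunum after heat and shake stress. The genes are Srebf2, Hmgcs1, Idi1, Fdft1, Sqle, Lss, Cyp51 and Insig1. Their probes were found through the RefSeq accession that each array probe carries, with no use of measured values. All 8 genes were on the array, with 14 probes among the 41012 non-control probes and 13837 named genes. All 14 probes were well above background on all 6 arrays, so no gene of the set was lost to the filter on dim probes.

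Cells hold their sterol content within narrow limits through SREBP2, the product of Srebf2. When membranes are rich in sterols, the INSIG proteins keep SREBP2 and its escort SCAP in the endoplasmic reticulum. When sterols fall, the complex moves to the Golgi, proteases release the active factor, and it switches on the enzymes that build cholesterol from acetyl-CoA, its own gene and Insig1. The small intestine both makes cholesterol and takes it up from the diet, and its epithelium exports sterols back to the lumen.

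The tissue came from male Sprague-Dawley rats of 6 weeks and 200 ± 20 g, with no transgene or deleted gene. The control group was kept at 25°C, and the S3d group was exposed to 35°C and to shaking at 0.1 g, 2 h a day, over 3 days. Each of the 3 samples per group was RNA pooled from 3 rats and was hybridised to a 1-colour Agilent array. The labels and the study's methods give different numbers of rats per group, and by the smaller number the pools of a group would have to share rats. The p-values then measure only the spread between these samples.

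Several facts about the arrays touch every result. The authors deposited the scanner files and a normalized log2 table, and each of the 6 columns of the table holds the values of the same-numbered array that the scanner files place in the opposite group (Spearman's rho 1.00, against 0.942 to 0.952 for the array of its own label). The 2 sources thus disagree on which arrays are the stressed ones, and no sample was reassigned. Differences are given here as arrays labelled S3d minus arrays labelled control in the scanner files. The study's own fold changes run in the direction of the table, which is the opposite one, so that every sign below turns if the table's labels are the right ones. For a selection of genes the study reports RT-PCR changes in the same direction as its own array fold changes. Which labels are right was not tested. The arrays lay on 2 slides, none of which held both groups and whose scans lie 450 days apart, so slide and group cannot be told apart. The 75th percentile of the signal was 414.4 to 430.1 intensity units on the arrays labelled control and 1456.1 to 1565.7 on those labelled S3d. Saturation affected 0 spots, and precision is limited by having 3 arrays in a group.

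The array labelled S3d replicate 1 stood apart from the rest in genes of the exocrine pancreas. On the log2 scale relative to the 75th percentile, the trypsinogen gene Prss1 was at 8.79 there and between -2.74 and 0.87 on the other arrays. The carboxypeptidase gene Cpa1 was at 7.09 there and at most at -6.85 elsewhere. The summed level of the 6 liver and pancreas markers was 639.8 times the 75th percentile on that array and 0.36 to 2.08 on the other 5. Results are therefore also given without this array. The intestinal markers matched the tissue label, since all 9 villus enterocyte, 3 goblet cell and 4 crypt proliferation markers on the array were well above background on all 6 arrays.

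Promoters of SREBP2 targets often hold a sterol regulatory element beside a CCAAT box, which the factor NF-Y binds, so those of the set were read for both. The RefSeq promoter table of the assembly GRCr8 held 6 of the 8 genes, without Sqle and Fdft1. The window was the 250 bases before the gene start, and both strands were searched. CCAAT was found in 5 of the 6 promoters and in 34.2% of all 27457 promoters in the table. It was also found in 11 of 13 promoters of other cholesterol synthesis enzymes. Genes of sterol uptake, esterification and efflux held it in 7 of 11 promoters, and genes that process and sense SREBP in 3 of 7. TCACNCCAC, the core of the classic sterol regulatory element, was found in 0 of 6 and in 0.987% of all promoters. Its looser form TCACNCCAN, which contains every TCACNCCAC match, was found in Srebf2 alone of the 6 and in 3.28% of all promoters. CACGTG, an E-box that SREBP proteins can also bind, was found in Insig1 alone of the 6 and in 5.73% of all promoters. These are matches of letters and not measured binding sites.

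The promoters of both regulators, of the enzyme that opens the pathway and of Cyp51, the only one of the 6 without a CCAAT match, are shown 5′ to 3′ on the strand of the gene. Srebf2 covers chr7:115543057-115543306 (+ strand), Insig1 chr4:8057770-8058019 (- strand), Hmgcs1 chr2:53382054-53382303 (+ strand) and Cyp51 chr4:30991443-30991692 (+ strand). Capitals mark TCACNCCAN, or CCAAT, which reads ATTGG where it lies on the opposite strand.
Srebf2: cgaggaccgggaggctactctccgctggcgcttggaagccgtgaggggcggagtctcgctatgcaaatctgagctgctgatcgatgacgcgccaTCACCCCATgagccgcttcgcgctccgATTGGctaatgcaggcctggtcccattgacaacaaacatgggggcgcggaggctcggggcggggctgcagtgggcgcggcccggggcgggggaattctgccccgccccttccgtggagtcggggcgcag
Insig1: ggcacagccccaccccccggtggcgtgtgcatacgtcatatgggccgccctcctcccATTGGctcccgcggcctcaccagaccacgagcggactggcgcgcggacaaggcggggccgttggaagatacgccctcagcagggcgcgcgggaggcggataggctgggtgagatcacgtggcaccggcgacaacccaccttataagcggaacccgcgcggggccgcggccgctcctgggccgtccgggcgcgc
Hmgcs1: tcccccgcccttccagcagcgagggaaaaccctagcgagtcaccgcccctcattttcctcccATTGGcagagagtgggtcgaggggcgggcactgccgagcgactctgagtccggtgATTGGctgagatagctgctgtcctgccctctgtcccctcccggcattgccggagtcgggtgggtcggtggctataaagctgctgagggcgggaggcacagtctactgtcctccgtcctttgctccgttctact
Cyp51: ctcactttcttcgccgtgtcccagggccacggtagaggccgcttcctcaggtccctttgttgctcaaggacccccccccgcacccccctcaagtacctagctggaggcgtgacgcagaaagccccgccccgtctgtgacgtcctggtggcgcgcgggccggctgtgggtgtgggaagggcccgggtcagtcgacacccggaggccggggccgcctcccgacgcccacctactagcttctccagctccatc
In Srebf2 the TCACCCCAT match lay 156 to 148 bases before the start, next to a CCAAT match at 129 to 125 bases. Hmgcs1 held 2 CCAAT matches, at 188 to 184 and at 133 to 129 bases before the start.

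Srebf2 fell on the arrays labelled S3d, with both of its probes. Its brightest probe, A_44_P382747, had log2 values of 0.75, 0.44 and 0.68 on the control arrays and of -1.43, -1.40 and -1.25 on the S3d arrays. The groups did not overlap, and the gap between them was far wider than the spread within either. The log2 fold change was -1.98 (SE 0.104, limma adjusted p = 2.5e-05), which is 3.94-fold lower. The other probe, A_44_P504215, lay between -3.52 and -3.30 on the control arrays and between -4.67 and -4.52 on the S3d arrays, and it fell by 1.19 (adjusted p = 6.2e-05). Without any scaling between arrays the brightest probe was at -0.13 (adjusted p = 0.287) and the other at 0.65 (adjusted p = 0.000249), both below the median of all named genes, which was then 1.85. After normexp background correction A_44_P504215 was at -1.92 and did not pass (adjusted p = 0.0889).

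Fewer cells of a type and less RNA per cell cannot be told apart in whole tissue. Beside these differences, the summed level of the 9 villus enterocyte markers was 3141 to 3512 times the 75th percentile on the control arrays and 1426 to 1481 on the S3d arrays, with 1 marker higher and 7 lower. The median of that list was -0.70, and 0.12 after quantile normalization. The sum of the goblet cell markers was 797 to 803 and 226 to 236. The median of that list was -1.11, with -0.74 after quantile normalization and -0.45 after normexp. The sum of the crypt proliferation markers was 40.7 to 44.4 and 39.5 to 42.1. Bright probes weigh most in such sums, and all tested probes at a mean signal of 7 had a median log2 fold change of -0.85. The sum of the 4 leukocyte markers was 6.18 to 6.46 and 4.09 to 4.21, and all 4 passed as lower. Among all named genes tested, 36.1% passed as higher and 37.4% as lower. The part of the cell types in the results was not tested.

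Insig1 encodes the protein that holds the SREBP complex in the endoplasmic reticulum, and it gave different answers from probe to probe. The brightest probe, A_44_P406069, had log2 values of 5.55, 5.47 and 5.36 on the control arrays and of 3.83, 4.01 and 4.24 on the S3d arrays. It fell by 1.43 on the log2 scale (SE 0.120, adjusted p = 0.000117), without overlap. A_44_P143886 fell by 0.51 (adjusted p = 0.00564), from 3.38 to 3.61 on the control arrays to 2.85 to 3.15 on the S3d arrays. The other two probes did not pass the test and overlapped between the groups, with -0.25 for A_44_P406074 (adjusted p = 0.117) and 0.26 for A_44_P547168 (adjusted p = 0.0783). The lower value of Insig1 thus rests on 2 of its 4 probes, and the mean over all 4 was -0.48. A_44_P143886 did not pass after quantile normalization, at -0.22 (adjusted p = 0.121), or after normexp, at 0.10 (adjusted p = 0.877). Without scaling the brightest probe turned to 0.41 and A_44_P143886 to 1.34, below the median of all named genes.

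Hmgcs1, the cytosolic HMG-CoA synthase that opens the mevalonate pathway, was measured by 2 probes of unlike response. The brightest, A_43_P11890, had log2 values of 3.65, 3.48 and 3.33 on the control arrays and of 3.73, 3.64 and 3.93 on the S3d arrays. The lowest S3d array lay below the highest control array, and the log2 fold change of 0.28 (SE 0.117, adjusted p = 0.0744) did not pass the test, although it passed without control replicate 1, at 0.36 (adjusted p = 0.0405). The other probe, A_44_P487240, had 0.58, 0.53 and 0.57 against 1.66, 1.53 and 1.64. It rose by 1.05 on the log2 scale (SE 0.065, adjusted p = 4.06e-05), with no overlap. The call for Hmgcs1 therefore depends on the probe.

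Idi1, which isomerises the isoprenoid building block, did not pass the test with either probe. Its brightest probe, A_43_P12843, had 3.39, 3.15 and 3.04 on the control arrays and 3.34, 3.22 and 3.78 on the S3d arrays. Only S3d replicate 3 lay above all control arrays, and the log2 fold change was 0.25 (SE 0.170, adjusted p = 0.222), or 0.09 without that array (adjusted p = 0.565). The other probe, A_44_P251944, gave 0.36 (SE 0.190, adjusted p = 0.136). The 2 probes of Idi1 thus agreed in sign and size within their errors.

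Fdft1, the squalene synthase that commits the pathway to sterols, rose on the S3d arrays. Its single probe, A_44_P358492, had log2 values of -0.91, -0.86 and -0.85 on the control arrays and of 0.59, 0.58 and 1.03 on the S3d arrays. The groups did not overlap, and the log2 fold change was 1.60 (SE 0.134, adjusted p = 0.000116), which is 3.04-fold higher. Sqle, the squalene epoxidase that follows it, had 2.31, 2.05 and 2.10 against 2.45, 2.20 and 2.77 with its probe A_44_P365580. These values overlapped, and the log2 fold change of 0.32 (SE 0.161, adjusted p = 0.122) did not pass the test, although it passed without S3d replicate 2, at 0.45 (adjusted p = 0.0381). Without S3d replicate 3 it was at 0.17 (adjusted p = 0.296).

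Lss, the lanosterol synthase that closes the ring system, fell, whereas Cyp51, the next enzyme, which demethylates lanosterol, rose. The probe of Lss, A_44_P334218, had log2 values of 1.20, 1.17 and 1.19 on the control arrays and of 0.06, -0.24 and -0.23 on the S3d arrays. Its control arrays were almost equal, with an SD of 0.014 (n = 3), and it fell by 1.33 on the log2 scale (SE 0.096, adjusted p = 6.92e-05), although it turned to 0.52, below the median of all named genes, without scaling. The probe of Cyp51, A_44_P168285, had 2.19, 2.27 and 2.06 against 3.76, 3.67 and 4.05. Its log2 fold change was 1.65 (SE 0.120, adjusted p = 6.82e-05), or 3.14-fold higher, without overlap. These neighbouring enzymes thus differed in sign, both past the test.

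**Figure D1:**
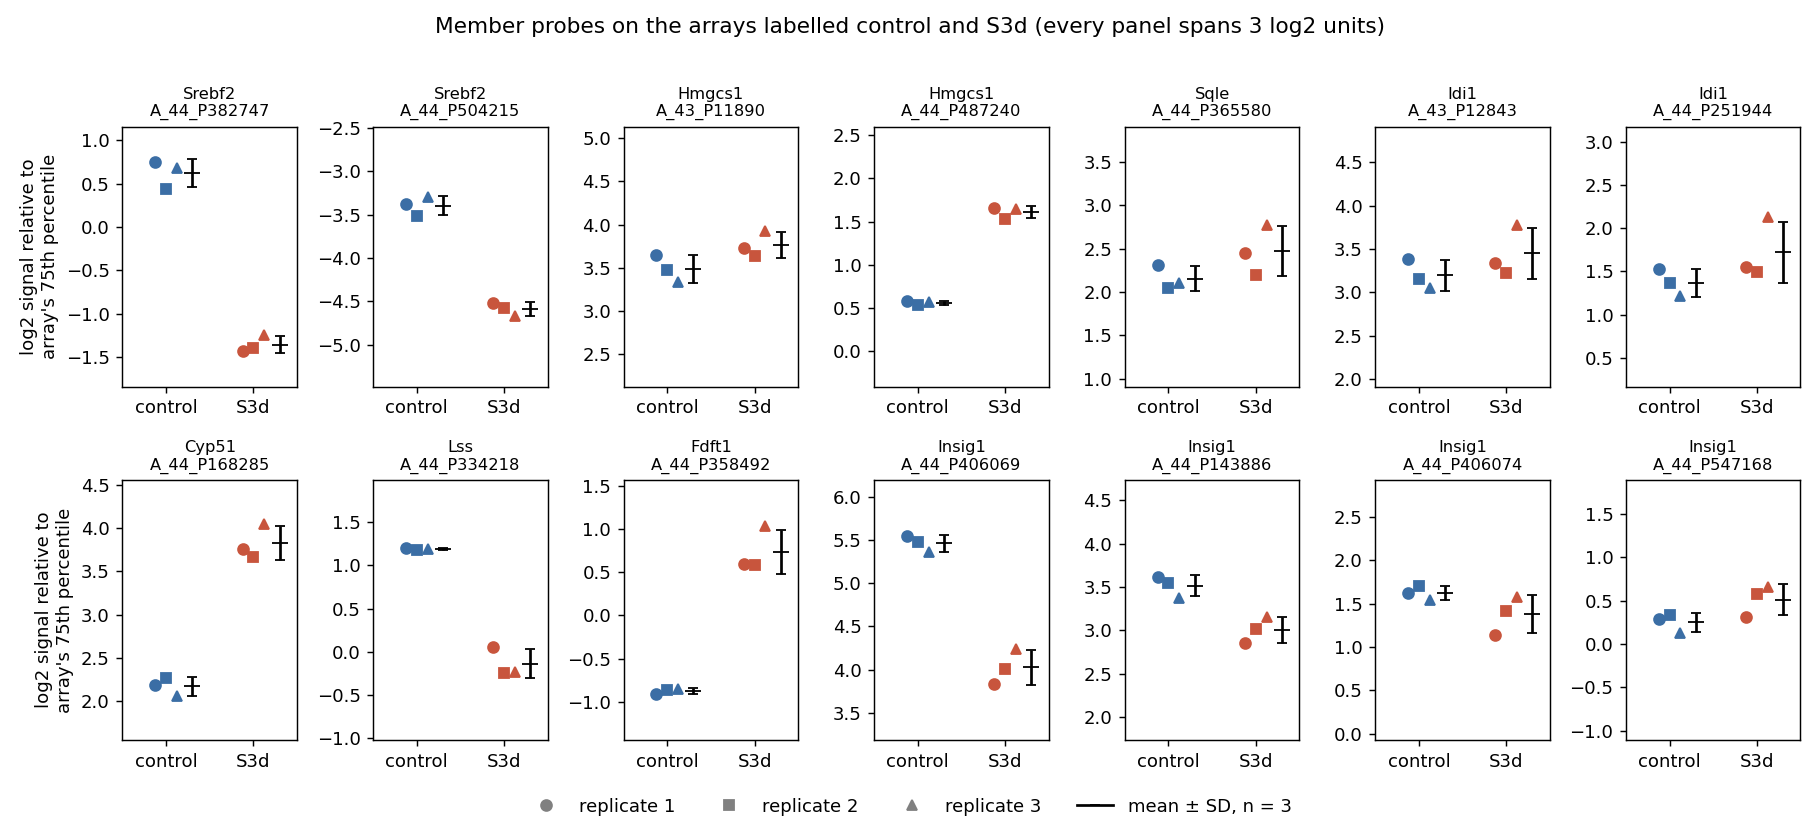
Log2 signal of the 14 probes relative to the 75th percentile of each array (y axis, log2 units) on the arrays labelled control (blue) and S3d (red), with 1 marker shape per replicate and the mean ± SD (n = 3) beside the points. The groups lie furthest apart for Srebf2, Cyp51, Fdft1, Insig1 (A_44_P406069) and Lss, while those of Sqle and Idi1 overlap; the signs are those of the scanner labels and turn under the table's labels.

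Of the 8 genes, 5 passed the test on their brightest probe, 2 of them higher (Cyp51 and Fdft1) and 3 lower (Srebf2, Lss and Insig1). Among all 11506 named genes tested, 73.4% passed, 36.1% higher and 37.4% lower, so that the share in the set was not above that of all genes. Without scaling between arrays 7 of the 8 genes passed and all 7 were higher, against 96.4% of all named genes, 95.1% higher. The groups did not overlap for 5 of the 8 genes and for 78.8% of all named genes. The median log2 fold change was 0.26 over the 8 genes and 0.00 over all named genes. The direction differed from gene to gene.

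Without the array labelled S3d replicate 1, 5 genes passed again, against 71.6% of all named genes. The log2 fold change was then -1.94 for Srebf2, 1.69 for Cyp51, -1.42 for Lss, 1.68 for Fdft1 and -1.33 for Insig1, with adjusted p-values from 0.000123 to 0.00049. Hmgcs1, Sqle and Idi1 were at 0.29, 0.33 and 0.30 and did not pass. The results for the set were thus about as large without the array that carried the pancreas transcripts.

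The background correction and the normalization moved these calls more than any left-out array. After quantile normalization all 8 genes passed, 5 higher and 3 lower, against 69.9% of all named genes. Hmgcs1 was then at 0.61 (adjusted p = 0.00356), Idi1 at 0.54 (adjusted p = 0.0325) and Sqle at 0.48 (adjusted p = 0.0433). After normexp background correction 3 of the 8 genes passed, namely Cyp51 at 2.03 (adjusted p = 0.0392), Fdft1 at 1.40 (adjusted p = 0.0398) and Srebf2 at -1.74 (adjusted p = 0.0221), against 4.47% of all named genes. Lss at -1.11 (adjusted p = 0.0765) and Insig1 at -0.93 (adjusted p = 0.169) did not pass under normexp. In the normalized table, by its own labels, all 8 genes passed, with 3 higher (Srebf2, Lss and Insig1) and 5 lower, against 69.5% of all named genes.

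Over all tested probes the log2 fold change moved with brightness, from a median of 0.34 at a mean signal of -4 to -0.48 at a mean signal of 5. Among probes within 0.5 log2 units of its mean signal, the median log2 fold change was -0.35 for the bright Hmgcs1 probe, -0.31 for that of Idi1 and -0.18 for that of Sqle. These 3 probes, at 0.28, 0.25 and 0.32, lay above those medians and under the 95th percentiles of like-bright probes, 0.84, 0.88 and 1.11. Cyp51 lay above the 95th percentile of its like-bright probes, which was 0.94, and Fdft1 above that of its own, 1.29. Srebf2 lay under the 5th percentile of like-bright probes, -1.55, whereas Lss and the brightest Insig1 probe lay inside theirs, at -1.40 and -1.66. These are descriptions of the probes on these arrays and carry no test.

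**Figure D2:**
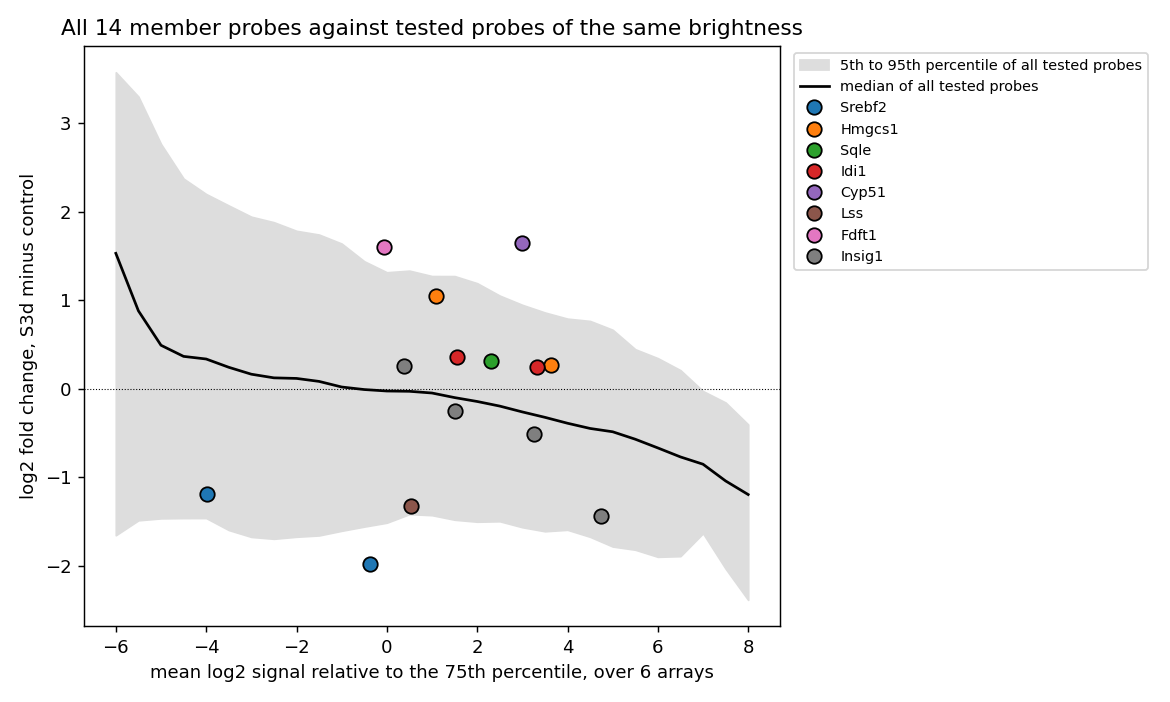
Log2 fold change, S3d minus control by the scanner labels (y axis), against the mean log2 signal relative to the 75th percentile over 6 arrays (x axis) for all 14 probes, 1 colour per gene. The line is the median and the band the 5th to 95th percentile of all tested probes of like brightness; the 14 probes include 3 outside the band, Cyp51 and Fdft1 above it and the brighter Srebf2 probe below it.

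The other enzymes of the pathway were mostly lower on the S3d arrays relative to the 75th percentile. Of the 16 listed enzymes, 15 were matched and tested, and 12 passed, 2 higher and 10 lower, with a median log2 fold change of -0.39, where 73.4% of all named genes passed. Without scaling all 15 passed as higher, as did 95.1% of all named genes. After quantile normalization 10 passed and the median was -0.32, and after normexp 1 passed and the median was -0.16, where all named genes were at -0.38. Acat2, the cytosolic thiolase before Hmgcs1, fell by 1.08 (adjusted p = 7.4e-05) and Msmo1, a methylsterol oxidase, fell by 1.05 (adjusted p = 0.00253). Both Acat2 and Msmo1 are bright probes, whose like-bright probes had medians of -0.40 and -0.56. Without scaling these 2 enzymes were at 0.76 and 0.79, below the median of all named genes. Hsd17b7, a keto reductase of late sterol synthesis, rose by 1.00 (adjusted p = 0.00105). After normexp Acat2 was at -0.53, Msmo1 at -0.40 and Hsd17b7 at 0.15 (adjusted p = 0.789), and none of these 3 passed.

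**Figure D3:**
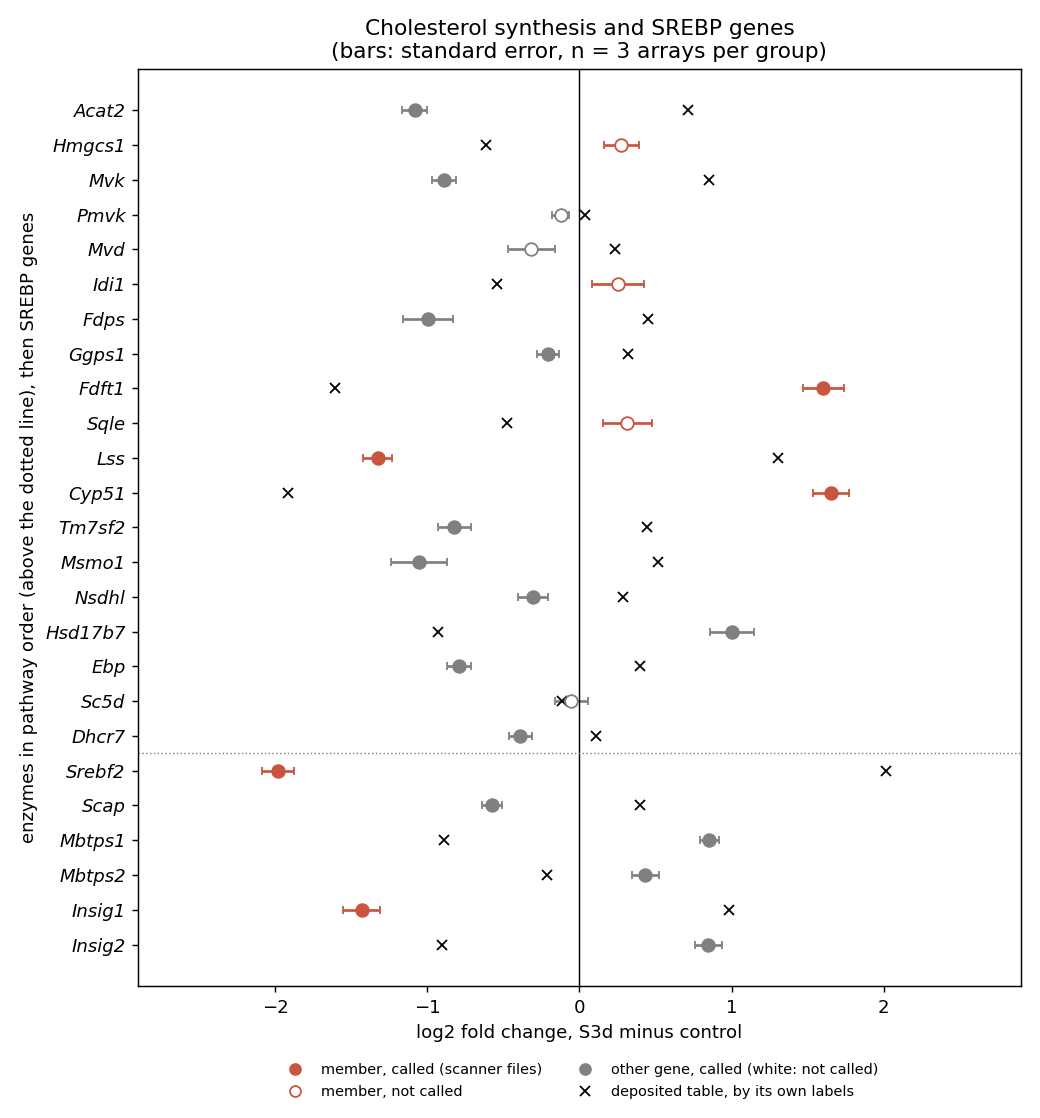
Log2 fold change, S3d minus control, of the enzymes in pathway order and of the SREBP genes (y axis), with the standard error (n = 3 arrays per group); filled circles passed the limma test, open ones did not, and crosses give the same genes in the normalized table by its own labels. Fdft1 and Cyp51 lie furthest to the right and Srebf2, Insig1 and Lss furthest to the left, and the crosses mirror them; without scaling between arrays Insig1 and Lss turn positive.

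Among the genes that process and sense SREBP, 8 of the 10 listed were matched and tested. Of these, 7 passed, 5 higher and 2 lower, against the 73.4% of all named genes. Their median was 0.42, and -0.16 after normexp, when none passed and the median of all named genes was -0.38. Without scaling all 8 passed as higher. Srebf1 was not matched. Insig2, the paralogue of Insig1, rose by 0.85 (adjusted p = 0.000309), from 0.66 to 0.86 on the control arrays to 1.55 to 1.75 on the S3d arrays, where the bright probes of Insig1 fell. Mbtps1, which makes the initial cut in SREBP, rose by 0.85 (adjusted p = 6.88e-05). Rnf145, a sterol-responsive ubiquitin ligase, rose by 1.23 (adjusted p = 0.000186), although it turned to -0.29 after normexp, above the median of all named genes. Scap, the escort of SREBP2, fell by 0.58 (adjusted p = 0.000407), and Erlin1, a partner of INSIG in the membrane, fell by 0.51 (adjusted p = 0.00779), with 1.27 and 1.34 for these 2 genes without scaling.

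For sterol uptake, esterification and efflux, all 17 listed genes were tested and 13 passed, 6 higher and 7 lower, with a median of -0.22 (-0.02 after normexp, when 1 passed), near the 73.4% of all named genes. Without scaling all 17 passed as higher. Mylip, a ubiquitin ligase under sterol control, rose by 1.46 (adjusted p = 0.000229) with its brightest probe. Its other probe, A_44_P159171, had no usable spot on S3d replicate 2, overlapped between the groups and did not pass, at 0.33 (adjusted p = 0.286). The mean over both probes, which on S3d replicate 2 holds the bright probe alone, was 1.73 and did not pass (adjusted p = 0.0762). Abcg5 and Abcg8 export sterols as a pair, and their values had opposite signs, with -0.96 for Abcg5 (adjusted p = 0.0159; 0.89 without scaling) and 1.03 for Abcg8 (adjusted p = 0.00258). After normexp Abcg5 was at -0.39 and Abcg8 at 0.06 (adjusted p = 0.929), and neither passed. Abcg5 did not pass without control replicate 2, at -0.84 (adjusted p = 0.0527), or without control replicate 3, at -0.90 (adjusted p = 0.0501). Abca1, a cholesterol exporter, rose by 1.05 (adjusted p = 0.000209) but was at -0.52 after normexp, when the median of all named genes was -0.38. Soat1, which esterifies cholesterol, fell by 1.15 (adjusted p = 0.00014), and Nr1h2, a nuclear receptor for oxysterols, fell by 0.85 (adjusted p = 0.000134), with 0.70 and 0.99 for these 2 genes without scaling. The Soat1 probe was dim, at -4.46 to -4.38 on the control arrays, and its fall did not reach the 5th percentile of like-bright probes, -1.46.

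Within each group the genes of the set were mostly highest on the same array, a pattern that was noticed after the values were seen and carries no test. On the S3d arrays, 7 of the 8 genes were highest on replicate 3, where 30.5% of all named genes were. On the control arrays, 6 of the 8 were highest on replicate 1, where 42.5% of all named genes were. Both held for 5 of the 8 genes, namely Srebf2, Hmgcs1, Sqle, Idi1 and Insig1, and for 16.4% of all named genes. The exception on the S3d arrays was Lss, which was highest on replicate 1.

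Relative to the mean of the other two S3d arrays, S3d replicate 3 was higher by 0.49 for Idi1, 0.45 for Sqle, 0.44 for Fdft1, 0.33 for Cyp51, 0.32 for Insig1, 0.25 for Hmgcs1 and 0.17 for Srebf2, and Lss was at -0.14. The median was 0.33 over the 8 genes and -0.01 over all named genes. Control replicate 1 differed less from the other two control arrays, from 0.29 for Idi1 to -0.05 for Fdft1, with a median of 0.16 over the 8 genes and 0.03 over all named genes. Of the 15 other enzymes, 9 were highest on S3d replicate 3, with 0.51 for Msmo1, 11 were highest on control replicate 1, and 8 did both. After quantile normalization 7 of the 8 were highest on S3d replicate 3 and 5 on control replicate 1, and after normexp 7 and 6. Among 11416 named genes the counts were 3938 and 4786 after quantile normalization, and 3293 and 3046 after normexp.

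Other markers shifted on the same arrays. The sum of the 5 smooth muscle markers was 140.8, 131.5 and 115.9 times the 75th percentile on control replicates 1, 2 and 3 and 114.0, 107.8 and 127.1 on the S3d replicates, and 4 of the 5 were highest on both control replicate 1 and S3d replicate 3. That of the 5 fibroblast markers was 103.1, 101.2 and 98.9 against 115.3, 118.8 and 128.7. The crypt proliferation sum was also highest on control replicate 1 and S3d replicate 3, at 44.4 and 42.1. So was the goblet cell sum, at 802.5 and 235.8, whereas the villus enterocyte sum was lowest on both, at 3141 and 1426. Single markers were highest on both arrays for 2 of 4 crypt, 1 of 3 goblet cell, 1 of 5 fibroblast and 1 of 9 villus markers. The share among all named genes was 16.4%. The part of these cells in the shared shift of the sterol genes was not tested.

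**Figure D4:**
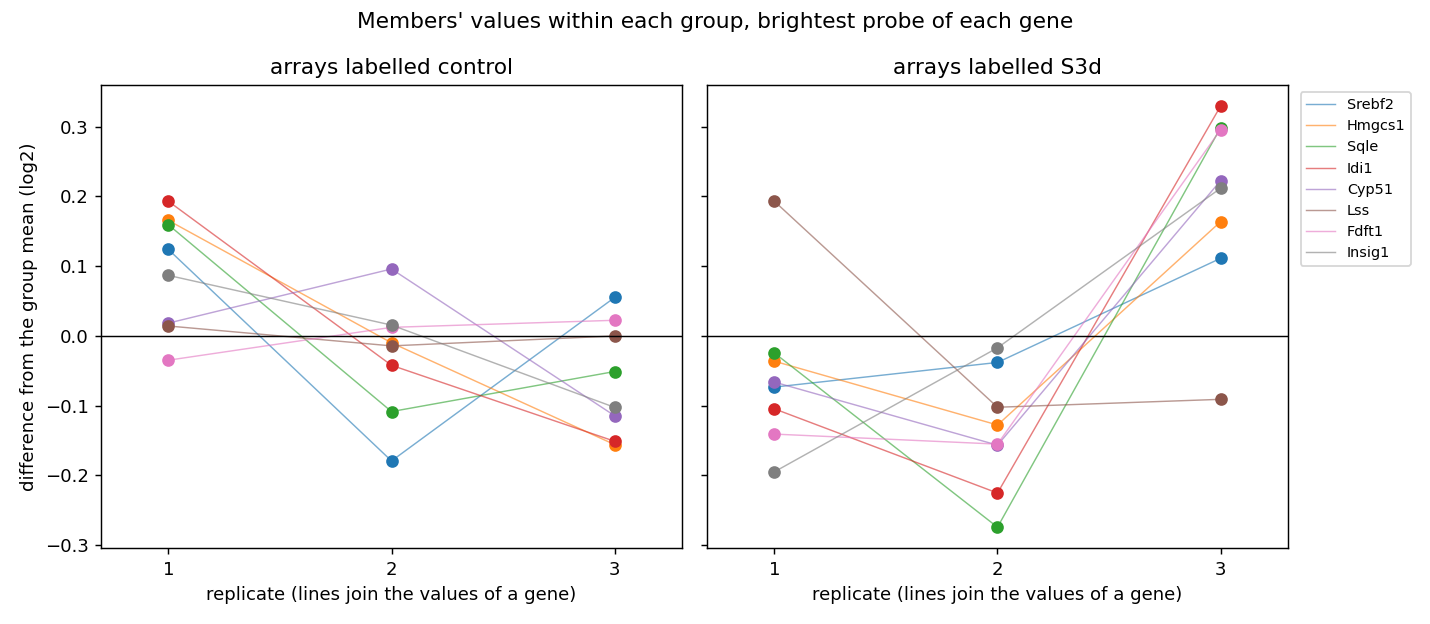
Difference of each gene's log2 value from its group mean (y axis, log2 units) on replicates 1, 2 and 3 (x axis) of the arrays labelled control (left) and S3d (right), for the brightest probe of the 8 genes; lines only join the values of a gene. On S3d replicate 3 all genes but Lss lie above 0, up to 0.33 for Idi1.

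The genes whose centred values over the 6 arrays lay nearest to those of Srebf2 among 11416 named genes were Orc2 (root mean square distance 0.027), Gatad2a (0.048) and Gnl3l (0.052), with log2 fold changes of -1.95, -1.94 and -1.999. Nearest to Hmgcs1 were Actg2 (0.034), Wt1 (0.034) and Eif2b1 (0.042), with 0.31, 0.22 and 0.32. No other gene of the set was among these 6, and a match over 6 arrays in 2 groups describes the pattern only.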

How the data were processed

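The authors deposited the scanner output of 6 Agilent arrays (Feature Extraction 10.7.3.1, background-subtracted but not normalized between arrays), as intensity values per spot, and a quantile-normalized table of log2 values, whose program is not given in the sources used here. Each array's processed signal was divided by its 75th percentile over non-control spots and taken to log2. Control and outlier-marked spots were left out, and repeated spots were averaged. Of 41012 probes, 31424 exceeded background clearly on every array of the control or of the S3d group and were tested with limma 3.58.1 (lmFit and eBayes, R 4.3.3), with Benjamini-Hochberg adjustment over all of them. The brightest probe stood for a gene, which passed at an adjusted p under 0.05. The test was checked on simulated data with 200 changed probes. Names came from RefSeq (17512 probes), and promoters from the RefSeq table of GRCr8. Lbr and Srebf1 were among the listed genes that were not matched.

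The 8 genes and all lists were chosen with earlier results of these data known. The text names all members, Srebf1, Insig2 and Scap, the 3 largest called rises and falls of each other list among probes above background on all 6 arrays, and the 3 nearest patterns of Srebf2 and of Hmgcs1. Some genes that the rule names are not reported here and stand only in the counts of their lists. The alternatives were quantile, median and no scaling, normexp (offset 50, on the median signal because the files hold no mean signal), other filters and probe rules, the normalized table, the replicate block, an intensity trend, the methods' analysis of variance, a fold change of at least 1.5, and each array left out. The slide could not be used as a block.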

Additional observations from a re-analysis of the deposited data

How the results depend on the processing

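The calls depended most on background correction and scaling. Of the 8 genes, 8 passed after quantile normalization and in the normalized table, and 3 after normexp. Normexp left 1 other synthesis enzyme, 0 SREBP processing genes, 1 gene of uptake, esterification and efflux and 514 named genes. A fold change of at least 1.5 left 3 of the 8 SREBP processing genes, against 5664 of the 11506 named genes (49.2%). The median of all named genes was 0.00 in the main values, -0.18 after median centring, -0.38 after normexp and 1.85 without scaling.

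By its own labels, the normalized table turned the sign of all 22 genes named with a value: Srebf2 2.01, Hmgcs1 -0.61, Sqle -0.48, Idi1 -0.54, Cyp51 -1.92, Lss 1.31, Fdft1 -1.61, Insig1 0.98, Hsd17b7 -0.93, Acat2 0.71, Msmo1 0.52, Rnf145 -1.06, Mbtps1 -0.89, Insig2 -0.90, Scap 0.40, Erlin1 0.69, Mylip -1.50, Abca1 -0.85, Abcg8 -0.94, Soat1 1.75, Abcg5 0.78 and Nr1h2 0.55. The exchanged labels give this turn. Without scaling, 9 signs turned: Lss 0.52, Insig1 0.41, Acat2 0.76, Msmo1 0.79, Scap 1.27, Erlin1 1.34, Soat1 0.70, Abcg5 0.89 and Nr1h2 0.99, all below the median of all named genes. After normexp, where the median of all named genes was -0.38, Rnf145 turned to -0.29 and Abca1 to -0.52. Another 13 kept their sign and lost their call, among them Soat1, which moved from -1.15 to -2.18. The cause was not tested.

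Leaving out each array in turn gave 5 to 6 called genes of the set, 9 to 11 other enzymes, 6 to 7 SREBP processing genes, 12 to 16 genes of uptake, esterification and efflux, and 7767 to 8344 named genes. Hmgcs1 and Sqle each gained a call under 1 omission, and Abcg5 lost its call under 2. Deviations of arrays of the same replicate number correlated between -0.049 and 0.022, and control replicates 1 and 3 correlated more with another number. With 3 arrays in a group, these values cannot show whether arrays of the same number were handled together. With the replicate block, 5 genes of the set and 8016 named genes passed. The probe rule moved Insig1 from -1.43 to -0.48 and Hmgcs1 from 0.28 to 0.66 when all probes were averaged. All 14 probes of the set were well above background, so none is given as a bound.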

Other observations

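Npc1, which moves cholesterol out of lysosomes, had 5 probes whose log2 fold changes ran from -3.21 (A_44_P543718, adjusted p = 1e-05) to 1.03 (A_44_P260850, adjusted p = 0.000108), and its brightest probe was at -0.61. A_44_P543718 was dim on the S3d arrays, at -5.66 to -5.44, against -2.40 to -2.23 on the control arrays. Scarb1, a lipoprotein receptor, had 2 probes of opposite sign, at 0.50 (adjusted p = 0.0221) and -0.53 (adjusted p = 0.00317). Fdps, the farnesyl diphosphate synthase before Fdft1, had 2 probes at -0.997 (adjusted p = 0.00195) and -0.30 (adjusted p = 0.117). These genes were chosen after their values were seen. In each of them, as in Insig1 and Hmgcs1, the value given for the gene depends on the probe.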
